A study of Mus musculus with 12 samples.

Results

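The HOX genes were followed in mesenchymal stem cells of bone marrow (MSC), the stroma from which fat, bone and cartilage cells arise, after 14 days of adipogenic culture. All rows of the count table whose symbol is Hox, a cluster letter from a to d and a number were taken, which gave 39 of 23955 symbols. Of these 39 genes, 22 had enough counts to be tested, among 12323 genes tested in all. The cells were commercial marrow MSC from female C57BL/6 mice at passages 9 to 10. Every culture, the vehicle cultures included, received insulin at 5 ug/mL, dexamethasone at 1 uM and isobutylmethylxanthine at 0.5 mM. To this were added 50 nM tributyltin (TBT, an organotin that activates the retinoid X receptor and PPARγ), 500 nM rosiglitazone (ROSI, a PPARγ agonist) or 0.1% DMSO as the vehicle, with 4 libraries each. The 2 agents were given at different doses, so their values stand side by side at 1 dose each. Per the title of the series, the study asked what activation of the retinoid X receptor does while such cells become adipocytes. Whether replicate libraries stem from separate cultures or animals is not stated in the labels, so p-values measure only the spread between libraries, which may be technical.

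HOX genes encode homeodomain transcription factors that lie in clusters, and their order along a cluster follows the order of the body regions in which they are active in the embryo. Low paralog numbers belong to the front of the trunk and high numbers to its rear end and the distal limb. Stromal cells of adult tissues keep much of this pattern in culture, so the HOX genes that are on and off act as a record of where the cells came from. HOX proteins bind DNA together with cofactors of the TALE class, such as PBX and MEIS proteins. Retinoic acid, which works through retinoic acid receptors paired with the retinoid X receptor, switches on genes at the anterior end of the clusters in embryos.

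The marrow stroma expressed 3 of the 4 clusters. Over all 12 libraries the 39 genes drew 40461 counts, of which 28191 fell on the 9 Hoxc genes, 7038 on the 11 Hoxa genes, 5212 on the 10 Hoxb genes and 20 on the 9 Hoxd genes. In CPM, counts scaled to library size, the Hoxc genes summed to 556 ± 141 in TBT, 355 ± 72.1 in ROSI and 397 ± 27.4 in DMSO (SD, n = 4 each). The Hoxa sums were 138 ± 10.9 in TBT, 93.5 ± 10.9 in ROSI and 97.2 ± 7.06 in DMSO, and the Hoxb sums were 90.0 ± 13.5 in TBT, 71.0 ± 8.5 in ROSI and 81.4 ± 8.24 in DMSO. The Hoxc cluster therefore led in every group, with 60.6% to 74.1% of a library's HOX counts. The Hoxd genes together stayed at or below 1.07 CPM in each library. A gene was called detected at a mean of at least 1 CPM that was also above the 99th percentile of 1504 odour, pheromone and taste receptor genes (sensory receptor genes), a family off in most tissues. By this rule 24 HOX genes were detected in TBT, 24 in ROSI and 22 in DMSO, and no Hoxd gene in any group. The percentile was 0.837 CPM in TBT, 0.495 in ROSI and 1.73 in DMSO, and without it 24 genes would be detected in DMSO too, since Hoxa4 at 1.25 CPM and Hoxb2 at 1.22 CPM failed there on the percentile alone. The 22 of DMSO were detected in all 3 groups. Hoxa4 passed the rule in TBT and ROSI, Hoxc12 in TBT and Hoxb2 in ROSI, all at means from 1.02 to 2.03 CPM.

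**Figure D1:**
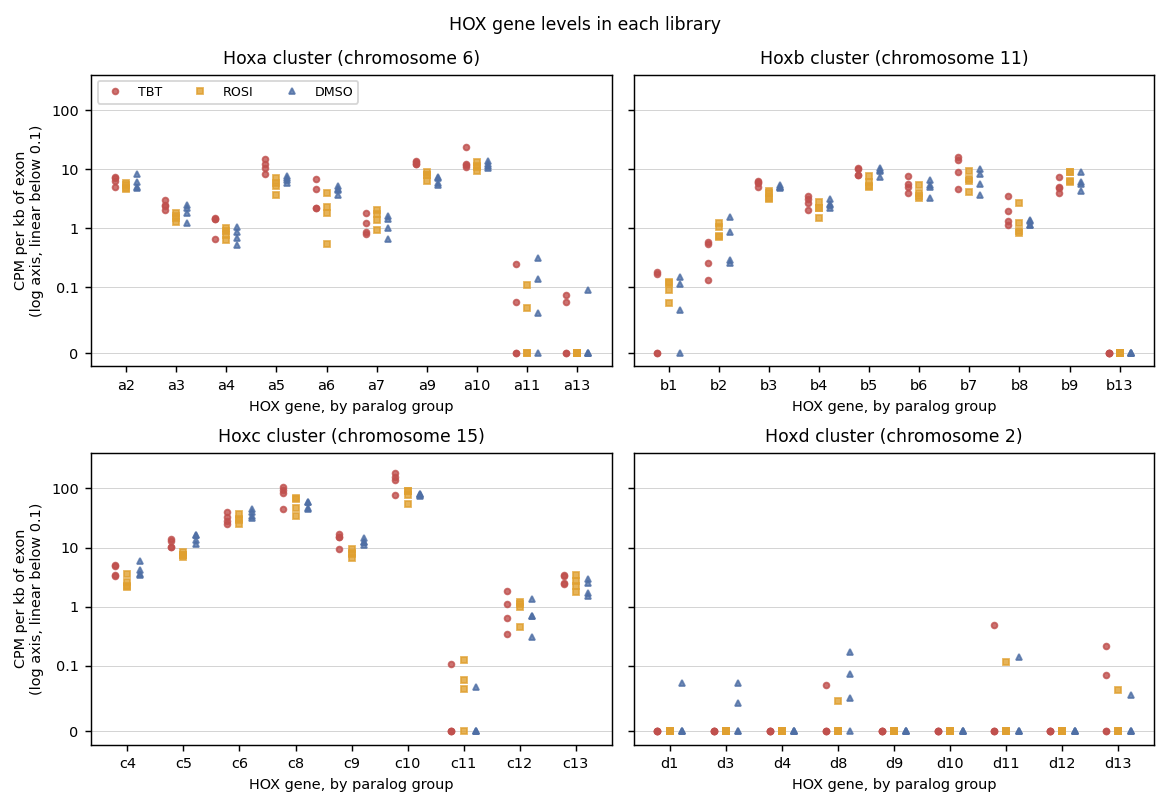
Level of HOX genes in every library, in CPM per kb of exon on a logarithmic axis that is linear below 0.1, with 1 panel per cluster and genes ordered from low to high paralog number. Hoxc10 and Hoxc8 lie highest, the Hoxd panel lies at the bottom of the axis, and levels drop between Hoxa10 and Hoxa11 and between Hoxc10 and Hoxc11.

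The clusters were on over stretches of neighbouring genes. In the Hoxa cluster the genes up to Hoxa10 were read, and Hoxa10 had 2539 counts over all libraries, while its neighbour Hoxa11 had 12 and Hoxa13, a gene of the hand and foot, had 3. Hoxb1 had 13 counts and Hoxb2 had 70, whereas Hoxb3 had 1101. At the other end of that cluster Hoxb9 had 1053 counts and Hoxb13, a gene of the tail and prostate, had none. Hoxc10 had 12129 counts and Hoxc11, the next gene, had 5. Past it the counts increased again, to 60 at Hoxc12 and 413 at Hoxc13, which is known for hair and nail keratins. The 5 members with 0 counts were Hoxb13, Hoxd4, Hoxd9, Hoxd10 and Hoxd12, and a count of 0 over all libraries allows a level of up to 0.046 CPM, counting error only. Hoxd1, Hoxd3, Hoxd8, Hoxd11 and Hoxd13 had between 1 and 6 counts, and the untested Hoxa4 had 97. Sensory receptor genes, as a measure of stray reads, averaged 0.0993 CPM per gene in TBT, 0.0458 CPM in ROSI and 0.343 CPM in DMSO, so HOX levels at or below these were not above those of silent genes.

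Per kilobase of exon, Hoxc10 was the highest HOX gene, at 139 CPM per kb in TBT, 78.4 in ROSI and 78.6 in DMSO. Hoxc10 marks the lumbar trunk and hindlimb in embryos and subcutaneous fat in adults. Hoxc8, a thoracic gene that holds back brown adipogenesis in mice, came next at 82.3 CPM per kb in TBT, 54.4 in ROSI and 52.5 in DMSO. Hoxc6 followed at 31.4 in TBT, 30.5 in ROSI and 37.6 CPM per kb in DMSO. After these lay Hoxa10 at 14.8 in TBT, 11.2 in ROSI and 12.0 CPM per kb in DMSO. Hoxc9 stood at 14.2 in TBT, 8.01 in ROSI and 12.7 CPM per kb in DMSO. Hoxc5 had 11.7 in TBT, 7.60 in ROSI and 14.4 CPM per kb in DMSO. The best covered genes of the Hoxb cluster, Hoxb7 and Hoxb5, averaged 8.15 and 8.14 CPM per kb over all libraries and did not differ by more than their spread. Forelimb and hindlimb factors outside the clusters were scarce too: Tbx5 and Pitx1 were near 0, and Tbx4 had 3.49 ± 1.21 CPM in TBT, 2.71 ± 0.829 in ROSI and 2.97 ± 0.835 in DMSO (SD, n = 4 each). The homeobox stretch is alike between HOX paralogs, and how reads with several matches were counted is not given in the sources used here.

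Start-site sequences are shown for 4 members: Hoxa5, Hoxa9 and Hoxc4, which are called in comparisons below, and Hoxa11 at the border of its cluster's expression. They are RefSeq windows in GRCm38.p6 of 300 bases, 250 before and 50 after the start site, read 5′ to 3′ on the gene's strand. Capitals mark AGGTCA or its reverse complement TGACCT, the half-site to which retinoid X receptor and its partners bind.
Hoxa5: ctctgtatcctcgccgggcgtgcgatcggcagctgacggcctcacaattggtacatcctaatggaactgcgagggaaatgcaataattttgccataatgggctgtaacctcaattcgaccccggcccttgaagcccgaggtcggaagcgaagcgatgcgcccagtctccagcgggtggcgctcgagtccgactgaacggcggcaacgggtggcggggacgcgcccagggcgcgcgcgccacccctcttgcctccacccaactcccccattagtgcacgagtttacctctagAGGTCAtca
Hoxa9: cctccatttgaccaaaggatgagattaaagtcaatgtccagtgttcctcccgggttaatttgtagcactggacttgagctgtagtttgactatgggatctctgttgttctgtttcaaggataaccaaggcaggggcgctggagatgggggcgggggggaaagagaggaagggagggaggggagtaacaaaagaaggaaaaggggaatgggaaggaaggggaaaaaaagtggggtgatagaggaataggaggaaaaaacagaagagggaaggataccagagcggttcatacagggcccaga
Hoxa11: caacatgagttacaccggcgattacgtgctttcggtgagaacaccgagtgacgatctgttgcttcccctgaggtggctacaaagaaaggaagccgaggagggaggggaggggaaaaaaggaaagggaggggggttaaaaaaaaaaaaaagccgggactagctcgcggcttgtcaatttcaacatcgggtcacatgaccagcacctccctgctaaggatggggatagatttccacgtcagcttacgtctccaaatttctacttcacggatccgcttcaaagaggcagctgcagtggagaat
Hoxc4: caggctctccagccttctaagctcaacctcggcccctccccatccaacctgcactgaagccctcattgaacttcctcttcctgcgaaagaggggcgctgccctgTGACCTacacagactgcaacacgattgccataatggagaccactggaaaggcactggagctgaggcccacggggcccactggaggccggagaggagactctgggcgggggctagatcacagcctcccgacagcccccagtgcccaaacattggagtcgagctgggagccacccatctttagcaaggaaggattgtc
Hoxa5 lies at chr6:52204538-52204837, Hoxa9 at chr6:52227321-52227620 and Hoxa11 at chr6:52245761-52246060, all on the minus strand. Hoxc4 lies at chr15:103034145-103034444 on the plus strand. The Hoxa5 window held 29 CpG and 1 AGGTCA at base 42 counted from the start site. Hoxa9 had 4 CpG, Hoxa11 had 15, and neither held the hexamer. Hoxc4 had 9 CpG and 1 TGACCT at base -146. Searched on both strands, AGGTCA occurred in 7 of 24 windows of 22 HOX genes and in 16.3% of all 32851 windows. Hoxb3, Hoxb5, Hoxc5, Hoxc9 and Hoxc10, also called below, had no window. The letters TGATTNAT, a form of the joint PBX and HOX site, were in 2 of the 24 HOX windows and in 3.2% of all windows, and TATAAA was in 4 of 24 and in 13.6%. HOX windows had a median of 14.5 CpG, against 7 over all windows. These matches describe the letters of the windows and locate no binding.

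Libraries held 4027152 to 7474654 counts, and 2131 to 4913 of them fell on HOX genes. TBT replicate 4 stood apart from the other TBT libraries. The ribosomal gene Rn45s took 6.85% of its counts and 0.399% to 0.67% of those in TBT replicates 1 to 3. It took 2.64% to 6.18% in DMSO libraries and 1.36% to 9.27% in ROSI libraries. On this measure TBT replicates 1 to 3, and not replicate 4, lay outside the range of the other groups. The log2 difference between the GC-rich and GC-poor end of the genes, set against the mean of all libraries, was 0.121 in TBT replicate 4, -0.557 to -0.267 in TBT replicates 1 to 3 and -0.0303 to 0.437 in ROSI and DMSO. The tested HOX genes had a median GC content of 53.8%, against 50.3% over all tested genes. By gene they ran from percentile 35.7 of tested genes (Hoxc8) to 94.4 (Hoxb8), with Hoxc10 at 53.1 and Hoxa10 at 55.5. The part of GC content in the HOX levels was not tested. HOX counts differed in TBT replicate 4: Hoxa genes made up 25.9% of its HOX counts, against 14.4% to 20.1% in the 11 other libraries. Hoxa10, a gene of the uterus and lumbar trunk, is the clearest case, at 34.7, 39.2, 37.4 and 74.4 CPM in TBT, 41.1, 34.6, 35.8 and 29.3 in ROSI and 35.4, 43.1, 33.3 and 38.7 in DMSO. Replicate 4 alone lifted the TBT mean. Calls and counts of genes without overlap that rest on TBT are therefore given with and without replicate 4, and the part that library quality has in them was not tested.

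Summed HOX levels were 878.1, 755.2, 909.6 and 597.4 CPM in TBT, 534.3, 400.5, 586.6 and 556.7 in ROSI and 605.2, 548.4, 537.8 and 612.6 in DMSO. TBT replicates 1 to 3 were above all other libraries, and TBT replicate 4 was within the DMSO range and just above ROSI. In bulk RNA, fewer cells of a type and less RNA per cell cannot be told apart. Marrow stroma markers (15 genes, Eng at under 1 CPM) summed to 4990 to 6000 CPM in TBT, 2950 to 3490 in ROSI and 5910 to 7430 in DMSO. Adipocyte markers (7 genes) summed to 2220 to 3350 CPM in TBT, 4370 to 5800 in ROSI and 1040 to 2020 in DMSO. Called among the 7 were 3 higher and 1 lower in TBT against DMSO and 5 higher in ROSI against DMSO. In TBT against ROSI 4 were lower. Over all tested genes 8.22% were higher and 7.03% lower, 10.0% higher and 11.1% lower in these comparisons. Without TBT replicate 4 the marker counts were 3, 1, 6 and 4. Lower in TBT than in DMSO was Adipoq, at 2.3 ± 0.856 CPM in TBT and 10.7 ± 3.26 in DMSO (SD, n = 4 each). Of the other cell types the cultures could hold, haematopoietic markers summed to at most 96.9 CPM, macrophage markers to at most 20.3, endothelial markers to at most 9.36 and neural markers to at most 2.84 CPM. Smooth muscle and pericyte markers summed to 619 to 1080 CPM in TBT, 335 to 383 in ROSI and 705 to 908 in DMSO. The HOX sums were highest in TBT replicates 1 to 3, whereas the stroma sums ran highest in DMSO, with a slight overlap with TBT. Of 14 tested stroma markers 4 fell in TBT against DMSO, 8 fell in ROSI against DMSO and 8 were higher in TBT than in ROSI, with none called the other way. Over all tested genes 7.03% were lower, 12.6% lower and 12.8% higher in these comparisons. The part of the stroma markers in the HOX results was not tested. Without TBT replicate 4 the stroma counts were 5 lower and 1 higher in TBT against DMSO, 8 lower in ROSI against DMSO, and 8 higher and 1 lower in TBT against ROSI. In that fit 32.6%, 28.0% and 38.2% of all genes were called in either direction in these comparisons.

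**Figure D2:**
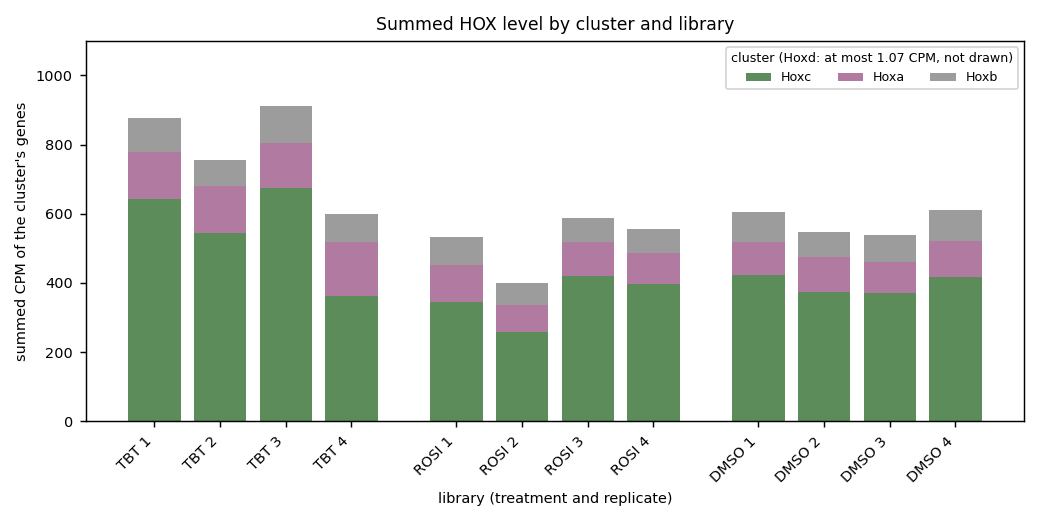
Summed HOX expression in each library in CPM, stacked by cluster, for TBT, ROSI and DMSO. Hoxc genes make up most of each bar, Hoxd genes are too low to see, and TBT replicates 1 to 3 reach 755.2 to 909.6 CPM while TBT replicate 4 stops at 597.4.

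TBT against DMSO asked how the organotin changed the HOX pattern of differentiating stroma. Of 22 tested genes 3 rose and 0 fell at an adjusted p of 0.05 in edgeR's quasi-likelihood test. They were Hoxa5, Hoxa9 and Hoxc10, members of central and posterior groups. This is 13.6% of the tested HOX genes, beside 15.2% of all tested genes called in either direction and 8.22% called higher. No HOX gene was called lower, beside 7.03% of all genes. The share called in either direction is near that of all genes, and no difference from them was tested. With upper-quartile scaling the calls over all genes split into 748 higher and 1143 lower, against 1013 higher and 866 lower with TMM scaling, and the same 3 HOX genes were higher. The median log2 fold change of the 22 genes was 0.19, with 17 above 0, beside -0.01 over all tested genes.

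Hoxa9, a posterior gene also known from haematopoietic progenitors, had 43.6, 42.1, 40.2 and 38.9 CPM in TBT, against 17.6, 18.7, 22.9 and 24.0 CPM in DMSO. The ranges lie far apart, and the 4 TBT libraries, replicate 4 included, lie within 5 CPM of each other. The log2 fold change was 0.98 ± 0.147 (SE), with a Benjamini-Hochberg adjusted p of 0.00054 in edgeR's quasi-likelihood test. Hoxa5, a thoracic gene needed for lung development and described in fat cells, had 27.9, 23.2, 19.5 and 15.4 CPM in TBT, against 13.3, 12.4, 11.1 and 14.2 CPM in DMSO. The groups did not overlap, though TBT replicate 4 came within 2 CPM of the highest DMSO library. Its log2 fold change was 0.76 ± 0.214 (SE, edgeR adjusted p = 0.025). Hoxc10 had 299, 264, 354 and 146 CPM in TBT, against 150, 156, 154 and 140 CPM in DMSO. TBT replicates 1 to 3 were well above DMSO and replicate 4 was inside its range. The log2 fold change of Hoxc10 was 0.83 ± 0.211 (SE, edgeR adjusted p = 0.016), and 1.04 ± 0.152 without TBT replicate 4 (8.4e-05). Groups without overlap were thus seen for 2 of 22 HOX genes, both higher in TBT, or 9.09%, beside 7.42% of all genes. Leaving out TBT replicate 4 gave 6, Hoxa5, Hoxa9, Hoxb3, Hoxc8, Hoxc9 and Hoxc10, beside 18.1% of all genes higher without overlap.

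Hoxc8 did not pass, with 194, 159, 179 and 83.5 CPM in TBT, against 110, 86.6, 84.5 and 111 CPM in DMSO. Its log2 fold change was 0.65 ± 0.239 (SE, edgeR adjusted p = 0.073), and without TBT replicate 4 it was 0.87 ± 0.188 (0.0019). Hoxb7 behaved alike in its values, at 18.4, 11.4, 20.8 and 6.09 CPM in TBT, against 4.75, 10.8, 7.18 and 12.8 in DMSO, and its edgeR adjusted p was 0.20 with all libraries and 0.021 without TBT replicate 4. For Hoxc8, TBT replicates 1 to 3 lay above each DMSO library, and for Hoxb7, TBT replicates 1 and 3 did; in both genes replicate 4 was the lowest TBT library. Hoxc6, a thoracic gene, had a log2 fold change of -0.26, within an interval of -0.59 to 0.08 (2 SE to each side). Hoxa10 had 0.30 (interval -0.11 to 0.72), and without TBT replicate 4 its log2 fold change was -0.0037. Without TBT replicate 4, 5 HOX genes were called: Hoxc8, Hoxb7 and Hoxc10, with Hoxa9 at a log2 fold change of 1.01 and Hoxa5 at 0.90 (edgeR adjusted p = 0.00012 and 0.0024). This is 22.7% of the tested HOX genes, all 5 higher, beside 32.6% of all genes called in either direction in the same fit. Of the 12635 genes in that fit, 2093 were called higher and 2031 lower. The Hoxa5 call was lost in edgeR without DMSO replicate 1 (adjusted p = 0.055), DMSO replicate 2 (0.061), DMSO replicate 3 (0.069), TBT replicate 1 (0.095) or TBT replicate 2 (0.063), and the Hoxc10 call without TBT replicate 3 (0.067). Hoxa9 kept its call in all settings tried.

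ROSI against DMSO asked the same of the PPARγ agonist, with the same 4 DMSO libraries as reference. Here 4 of 22 HOX genes fell and 0 rose in edgeR's quasi-likelihood test, namely Hoxb5, Hoxc4, Hoxc5 and Hoxc9. This is 18.2% of the tested HOX genes, beside 22.6% of all tested genes called in either direction and 12.6% called lower. No HOX gene was called higher, beside 10.0% of all genes. The median log2 fold change of the 22 genes was -0.24, with 7 above 0, beside 0.01 over all tested genes. The share called lower is near that of all genes, and no difference from them was tested. The sum of 3 interferon response genes was 29.6 to 38.4 CPM in ROSI and 356 to 883 CPM in DMSO. That of sensory receptor genes was 62.8 to 76.0 CPM in ROSI and 295 to 775 CPM in DMSO. The part of both in the HOX differences was not tested.

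Hoxc5, a gene of the neck and front thorax, had 24.6, 20.2, 22 and 22.1 CPM in ROSI, against 47.5, 33.0, 39.8 and 48.5 CPM in DMSO. The groups were well apart. The log2 fold change was -0.93 ± 0.157 (SE), with an adjusted p of 0.00031 in edgeR's quasi-likelihood test. Hoxc9, a lower thoracic gene used as a marker of subcutaneous white fat, had 22.6, 15.8, 19.4 and 18.3 CPM in ROSI, against 29.9, 29.9, 26.7 and 33.8 CPM in DMSO. Again the groups did not overlap, and the log2 fold change was -0.67 ± 0.177 (SE, edgeR adjusted p = 0.011). Hoxb5, needed by neural crest cells that reach the gut, had 14.8, 9.32, 11.4 and 9.83 CPM in ROSI, against 17.8, 14.0, 18.4 and 20.1 CPM in DMSO. Its groups overlapped by 1 library on each side, and its log2 fold change was -0.65 ± 0.187 (SE, edgeR adjusted p = 0.017). Hoxc4, the most anterior gene of its cluster, had 9.03, 6.64, 5.69 and 5.42 CPM in ROSI, against 15.0, 10.8, 8.70 and 9.01 CPM in DMSO. These ranges overlap narrowly, and the log2 fold change was -0.70 ± 0.241 (SE, edgeR adjusted p = 0.045).

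Hoxb3, a hindbrain and neck gene, missed the threshold with groups that did not overlap, at 11.5, 11.1, 15.1 and 13.8 CPM in ROSI, against 19, 17.3, 16.7 and 17.7 CPM in DMSO. Its log2 fold change was -0.45 ± 0.158 (SE, edgeR adjusted p = 0.051), and 63.9% of its exon bases are shared with the antisense gene Hoxb3os, whose reads cannot be told apart in libraries without strand. With Hoxb3, Hoxc5 and Hoxc9, 3 of 22 HOX genes (13.6%) had groups without overlap and lower in ROSI, beside 15.4% of all genes. The 2 genes highest per kb were not called. Hoxc8 had 87.8, 63.5, 131 and 125 CPM in ROSI, against 110, 86.6, 84.5 and 111 CPM in DMSO, and its log2 fold change of 0.05 had an interval of -0.43 to 0.53. Hoxc10 had 145, 105, 173 and 176 CPM in ROSI, against 150, 156, 154 and 140 CPM in DMSO. ROSI libraries of both genes spread on either side of DMSO. The Hoxc4 call was lost in edgeR without DMSO replicate 1 (adjusted p = 0.17) or 2 (0.082), ROSI replicate 2 (0.09), 3 (0.13) or 4 (0.13), or TBT replicate 3 (0.055), and the Hoxb5 call without DMSO replicate 4 (0.058) or ROSI replicate 2 (0.064) or 4 (0.062). Without ROSI replicate 3, Hoxb3 (0.044) and Hoxa6 (0.037) were called lower, and Hoxb3 also without TBT replicate 4 (0.037).

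**Figure D3:**
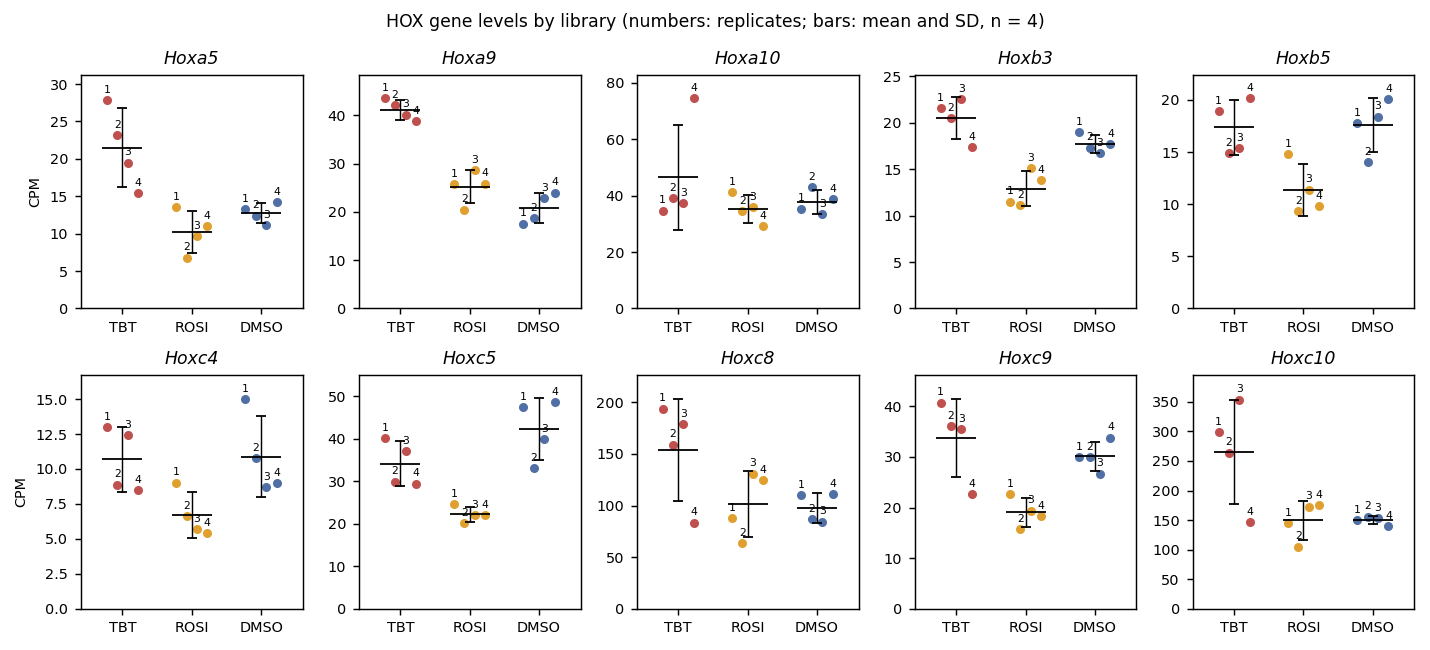
CPM of 10 HOX genes in each library of TBT, ROSI and DMSO, with the replicate number as marker and the mean and SD of n = 4 beside it. Hoxa9 separates TBT from both other groups, Hoxc5 separates ROSI from both other groups, and TBT replicate 4 lies below the other TBT libraries in Hoxc8 and Hoxc10 and above them in Hoxa10.

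TBT against ROSI compares the agents directly and reuses the libraries of both contrasts above, so its calls add no separate evidence to them. Of 22 HOX genes 8 were higher in TBT and 0 lower in edgeR's quasi-likelihood test, which is 36.4%, beside 23.9% of all tested genes called in either direction, 12.8% called higher and 11.1% called lower. The 8 were Hoxa5, Hoxa9, Hoxb3, Hoxb5, Hoxc4, Hoxc5, Hoxc9 and Hoxc10. Groups without overlap and higher in TBT were seen for 7 of 22 (31.8%), beside 10.9% of all genes. This count was 10 without TBT replicate 4, beside 22.1% of all genes. The median log2 fold change was 0.61, with 20 of 22 above 0, beside 0.02 over all tested genes. By cluster the calls were 2 of 8 Hoxa, 2 of 7 Hoxb and 4 of 7 Hoxc genes, and by position 2 of 6 genes of groups 1 to 4, 3 of 10 of groups 5 to 8 and 3 of 6 of groups 9 to 13. Calls were spread over all 3 expressed clusters, and by position they fell on paralog groups 3, 4, 5, 9 and 10. The 3 calls of groups 5 to 8 were all of group 5. No tested gene of groups 6 to 8 was called, and neither was Hoxc13.

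Hoxa5 had the largest of these changes, at 27.9, 23.2, 19.5 and 15.4 CPM in TBT, against 13.5, 6.79, 9.70 and 11 CPM in ROSI, with a log2 fold change of 1.09 ± 0.218 (SE, edgeR adjusted p = 0.0019). Hoxc9 had 40.7, 36.1, 35.5 and 22.6 CPM in TBT, against 22.6, 15.8, 19.4 and 18.3 CPM in ROSI, and a log2 fold change of 0.84 ± 0.177 (SE, edgeR adjusted p = 0.0029). In both genes TBT replicate 4 was the lowest TBT library, and for Hoxc9 it came level with ROSI replicate 1 to within rounding. Hoxa9 had 25.8, 20.5, 28.7 and 25.9 CPM in ROSI, below each TBT library, and a log2 fold change of 0.71 ± 0.145 (SE, edgeR adjusted p = 0.0023). Hoxb3 had 21.6, 20.5, 22.5 and 17.4 CPM in TBT, above each ROSI library, and a log2 fold change of 0.66 ± 0.157 (SE, edgeR adjusted p = 0.0064). Hoxc5, at 40.2, 29.9, 37.0 and 29.4 CPM in TBT, was again above each ROSI library, with 0.62 ± 0.158 (SE, edgeR adjusted p = 0.0094). Against DMSO, Hoxc5 and Hoxb3 had log2 fold changes in TBT of -0.31 and 0.22, neither called.

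Hoxc10 in TBT overlapped ROSI through replicate 4 alone, and its log2 fold change was 0.83 ± 0.211 (SE, edgeR adjusted p = 0.0097). Hoxb5 had 18.9, 14.9, 15.4 and 20.2 CPM in TBT, all above ROSI by a narrow margin, with a log2 fold change of 0.63 ± 0.188 (SE, edgeR adjusted p = 0.024). Hoxc4 had 13, 8.88, 12.4 and 8.48 CPM in TBT, and its ranges overlapped; its log2 fold change was 0.70 ± 0.241 (SE, edgeR adjusted p = 0.044). These last calls were the least stable. The Hoxc4 call was lost in edgeR without DMSO replicate 2 (0.055) or 3 (0.057), ROSI replicate 2 (0.091), 3 (0.12) or 4 (0.11), or TBT replicate 1 (0.14) or 3 (0.13). The Hoxb5 call was lost without ROSI replicate 2 (0.08), 3 (0.057) or 4 (0.069) or TBT replicate 1 (0.072), and the Hoxc10 call without TBT replicate 3 (0.053). Without TBT replicate 4, 11 genes were called in edgeR, which is 50.0% of the tested HOX genes, beside 38.2% of all genes called in either direction in the same fit. All 8 calls held, at log2 fold changes of 1.23 for Hoxa5, 0.74 for Hoxa9, 0.74 for Hoxb3, 0.56 for Hoxb5, 0.80 for Hoxc4, 0.70 for Hoxc5, 1.00 for Hoxc9 and 1.04 for Hoxc10. Hoxc8 (log2 fold change 0.81, edgeR adjusted p = 0.0023) and Hoxb7 (1.00, 0.012) were added as higher, and Hoxb9 as lower in TBT (-0.69 ± 0.232, 0.024). Beside these calls, the sum of 3 interferon response genes was 389 to 1090 CPM in TBT and 29.6 to 38.4 CPM in ROSI, and that of sensory receptor genes 115 to 195 CPM in TBT and 62.8 to 76.0 CPM in ROSI; their part in the HOX differences was not tested.

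**Figure D4:**
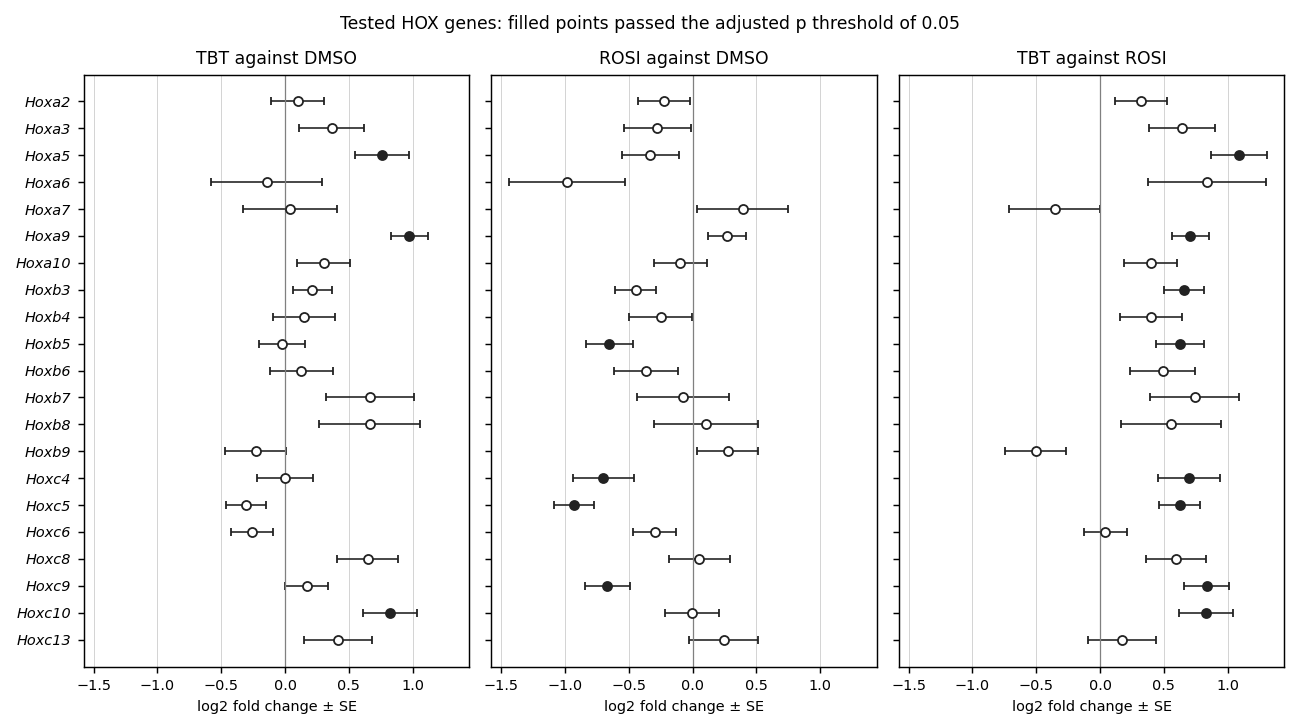
Log2 fold change with its standard error of tested HOX genes in TBT against DMSO, ROSI against DMSO and TBT against ROSI, with filled points at an edgeR adjusted p of 0.05 or lower. Filled points lie right of 0 for 3 genes in TBT against DMSO and for 8 in TBT against ROSI, and left of 0 for 4 genes in ROSI against DMSO.

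Among the genes at the anterior end that are known in mice to carry a retinoic acid response element, Hoxb4 was tested and was called in no comparison. Hoxb4, known from the expansion of blood stem cells, averaged 7.35 ± 1.69 CPM in TBT, 5.62 ± 1.41 in ROSI and 6.63 ± 0.932 in DMSO (SD, n = 4 each). Hoxa4 averaged 2.03 CPM in TBT, 1.33 in ROSI and 1.25 in DMSO, Hoxb1 was at or below 0.386 CPM in each library, and Hoxd4 had no counts.

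The remaining tested genes, Hoxa2, Hoxa3, Hoxa6, Hoxa7, Hoxa10, Hoxb6, Hoxb8, Hoxb9, Hoxc6 and Hoxc13, passed in no comparison. Hoxc6 was the most abundant of them, at 49.7 ± 9.86 CPM in TBT, 48.3 ± 7.76 in ROSI and 59.4 ± 10.1 in DMSO (SD, n = 4 each). Hoxb9 averaged 13.6 ± 3.77 CPM in TBT, 19.4 ± 4.20 in ROSI and 16.0 ± 5.21 in DMSO, and with Hoxa7 was 1 of 2 genes with a log2 fold change below 0 in TBT against ROSI. Hoxa3 had no overlap between TBT and ROSI, at 7.69, 5.21, 6.42 and 6.09 CPM in TBT, against 3.26, 3.95, 4.66 and 4.21 CPM in ROSI, and missed the threshold with an edgeR adjusted p of 0.077. Exon bases shared with neighbouring or antisense RNAs made up 25.1% of Hoxa3, 23.3% of Hoxa7 and 15.0% of Hoxa2. Antisense and noncoding RNAs of the clusters were scarce themselves: 10 were in the table and 0 had enough counts to test, with sums of 1.28 to 3.04 CPM in TBT, 1.25 to 2.53 in ROSI and 0.702 to 3.56 in DMSO.

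The TALE cofactors were expressed together with the HOX genes, and 8 of 9 were tested. Of these 8, 1 was higher and 0 lower in TBT against DMSO, 1 higher and 2 lower in ROSI against DMSO, and 4 higher and 0 lower in TBT against ROSI. Over all tested genes, 8.22% were higher and 7.03% lower in TBT against DMSO, 10.0% higher and 12.6% lower in ROSI against DMSO, and 12.8% higher and 11.1% lower in TBT against ROSI. The cofactor counts without TBT replicate 4 were 2 higher and 1 lower in TBT against DMSO, 1 higher and 3 lower in ROSI against DMSO, and 4 higher and 1 lower in TBT against ROSI. Over all genes the shares called in either direction were then 32.6%, 28.0% and 38.2%. With all libraries these shares were 15.2%, 22.6% and 23.9%. Pbx3 fell to 19.5 ± 2.70 CPM in ROSI, against 44.6 ± 7.27 in DMSO, a log2 fold change of -1.18 ± 0.171 (SE, edgeR adjusted p = 7.6e-05). Pknox2 was higher in TBT, at 84.6 ± 14.5 CPM, than in ROSI, at 45.8 ± 6.81, and in DMSO, at 56.0 ± 10.1 (SD, n = 4 each; edgeR adjusted p = 0.001 against ROSI and 0.021 against DMSO). Its log2 fold changes without TBT replicate 4 were 1.01 against ROSI and 0.72 against DMSO, both called. Of 13 regulators of chromatin at the clusters, all tested, 1 rose in TBT against DMSO, 3 fell in ROSI against DMSO and 4 were higher in TBT than in ROSI, with none called the other way, beside the same shares over all genes of 8.22%, 12.6% and 12.8%. Without TBT replicate 4, 3 rose and 1 fell in TBT against DMSO, 3 fell in ROSI against DMSO, and 6 were higher and 2 lower in TBT than in ROSI. These stand beside 32.6%, 28.0% and 38.2% of all genes called in either direction in that fit. Kmt2a, the methyltransferase that keeps HOX genes on, had 575 ± 81.8 CPM in TBT, 426 ± 51.8 in ROSI and 593 ± 44.9 in DMSO and was called lower in ROSI against DMSO (edgeR adjusted p = 0.016) and higher in TBT against ROSI (0.028). The Polycomb genes Rnf2 and Cbx7, whose products keep HOX genes off, were called in the same 2 comparisons and directions as Kmt2a. In TBT against ROSI these 3 calls held without TBT replicate 4, at log2 fold changes of 0.54 for Kmt2a, 0.70 for Rnf2 and 0.67 for Cbx7.

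Of 27 other regional homeobox and T-box genes 12 were tested. Called were 1 higher and 0 lower in TBT against DMSO, 1 higher and 3 lower in ROSI against DMSO, and 3 higher and 0 lower in TBT against ROSI, beside shares over all genes of 8.22% higher, 12.6% lower and 12.8% higher in these comparisons. Leaving out TBT replicate 4, the counts were 2 higher in TBT against DMSO, 1 higher and 4 lower in ROSI against DMSO, and 4 higher in TBT against ROSI. Of all genes, 32.6%, 28.0% and 38.2% were called in either direction in that fit. Called higher were 2093, 1625 and 2520 of 12635 genes, and called lower 2031, 1912 and 2306. Emx2, a gene of the shoulder blade and urogenital tract, had 137 ± 33.6 CPM in TBT, 66.2 ± 10.3 in ROSI and 89.9 ± 10.9 in DMSO (SD, n = 4 each), with log2 fold changes of 0.61 ± 0.169 in TBT against DMSO (SE, edgeR adjusted p = 0.023) and 1.05 ± 0.17 in TBT against ROSI (0.00035), and of 0.76 and 1.20 without TBT replicate 4. Tbx15, known from limb skeleton and subcutaneous fat, had 223 ± 33.2 CPM in TBT, 145 ± 11.1 in ROSI and 192 ± 23.1 in DMSO, and passed in both comparisons with ROSI. Irx3, which rose in ROSI against DMSO, stood at 2.90 ± 1.00 CPM in ROSI and 0.991 ± 0.608 in DMSO. Of 8 tested genes beside the HOX clusters, Hibadh rose in TBT (65.0 ± 4.83 CPM) and in ROSI (70.0 ± 3.28 CPM) against DMSO (46.3 ± 1.43 CPM; edgeR adjusted p = 0.0087 and 0.00072), and Snx10 was higher in ROSI than in both other groups. These calls held without TBT replicate 4. Then 3 of the 8 neighbours were higher in TBT against DMSO, beside 2093 of 12635 genes called higher and 32.6% called in either direction. The 6 ParaHox genes, relatives of the HOX genes in gut and brain, summed to at most 0.475 CPM in a library.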

How the data were processed

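RNA was measured by RNA-seq in 12 libraries, 4 each of TBT, ROSI and DMSO. Total RNA was depleted of ribosomal RNA and read as single reads without strand on a SOLiD sequencer, per the labels' protocols. The authors deposited raw read counts per gene symbol for 23955 symbols, and regularized-log values on a log2 scale, which entered 1 alternative only. DESeq2, SAMtools and FastQC were used on the mm9 build, per the submitters' processing notes. Not given in the sources used here are the gene annotation, the aligner and the program that counted reads. Columns were mapped to libraries by their titles.

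The count table was tested with edgeR 4.0.16 under R 4.3.3. Symbols passing filterByExpr with the 3 groups (12323, of them 22 HOX genes) were scaled with TMM factors and fitted in 1 quasi-likelihood model (glmQLFit, glmQLFTest) over all 12 libraries, without covariates, and p-values were Benjamini-Hochberg adjusted over all genes, with a threshold of 0.05. Standard errors are the log2 fold change over the root of its F statistic. CPM are counts relative to the TMM-scaled library size, as edgeR's cpm function gives them. Exon lengths, GC content and shared exon bases came from GENCODE M21, matched by symbol (23561 of 23955 symbols, and all 39 HOX genes), and start-site windows from RefSeq. The script was tested on simulated data.

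Each tested HOX gene could be named, those called got the values of each library, and of the lists of cofactors, cluster neighbours, regional factors and chromatin regulators the called members could be named. Some genes are counted but not reported here by name. The members and lists were chosen with earlier results of these data known. No pair of libraries of a group was a copy: the lowest chi-square over its degrees of freedom was 4.66. Totals of 4027152 to 7474654 counts limit what can be seen of low genes. Alternatives were other scaling factors, DESeq2 1.42.0, limma 3.58.1 on the deposited log2 values, other filters, fits of 2 groups, a replicate block, a GC correction, a stricter threshold and the loss of each library. For the related lists and for groups without overlap, values without TBT replicate 4 were added after seeing the data.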

Additional observations from a re-analysis of the deposited data

Results flagged for a closer look

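Hoxa10 in TBT had 1 library far from the others: replicate 4 was at 74.4 CPM, the nearest TBT library at 39.2 and the lowest at 34.7 CPM. The gap took 0.886 of the group's range, above the Dixon limit of 0.829 for 4 libraries. This was 1 of 78 groups of values examined, and chance flags about 1 in 20. Without TBT replicate 4 the log2 fold change of Hoxa10 in TBT against DMSO was -0.0037, and with all libraries it was 0.30.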

How the results depend on the processing

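No HOX gene reversed its direction where it was called. Over the alternatives, 322 of 360 values of called HOX genes kept their call and 38 lost it, and 28 of 1212 values of genes not called gained one. Called HOX genes numbered 2 to 5 in TBT against DMSO, 2 to 5 in ROSI against DMSO and 6 to 11 in TBT against ROSI when single libraries were left out; all genes called numbered 1019 to 4124, 2219 to 3537 and 1732 to 4826 in these comparisons. At an adjusted p of 0.01, called HOX genes numbered 1 in TBT against DMSO and 1 in ROSI against DMSO, and all genes 574 in TBT against DMSO, 1713 in ROSI against DMSO and 1355 in TBT against ROSI. With GC correction and without TBT replicate 4, 8 HOX genes (36.4%) were called in TBT against DMSO, all higher. Beside them stood 3556 of 12635 genes (28.1%), 1841 higher and 1715 lower. In TBT against ROSI 15 HOX genes (68.2%) were called, 14 higher and 1 lower. There 34.2% of all genes were called, 2210 higher and 2114 lower. The cause of these counts was not tested. With only the 2 groups compared, 1199 of all genes were called in TBT against DMSO. The Hoxc4 call was lost in DESeq2 for ROSI against DMSO (adjusted p = 0.055), and for TBT against ROSI with upper-quartile factors (0.06), without a filter (0.053) and with 2 groups only (0.063). Hoxb3 was called in ROSI against DMSO with upper-quartile factors (0.036), a filter at 5 CPM (0.041), 2 groups only (0.048) and limma on the deposited log2 values (0.046), and Hoxb6 in TBT against ROSI with GC correction (0.049).

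Replicate numbers did not pair the libraries: deviations of same-numbered libraries correlated at -0.43 to 0.14, over 0.1 for 2 of 12 pairs. With the replicate as a block, called HOX genes numbered 3 (13.6%) in TBT against DMSO, 4 (18.2%) in ROSI against DMSO and 8 (36.4%) in TBT against ROSI. All genes called in that fit numbered 1160 (9.41%), 2289 (18.6%) and 2154 (17.5%). With the block and GC correction 1144 of all genes (9.28%) were called in TBT against DMSO. Detected HOX genes numbered 19 in TBT, 17 in ROSI and 18 in DMSO at 5 CPM, and 24 in each group at 1 CPM with no comparison with sensory receptor genes. The 17 untested genes did not have enough counts to test. Hoxa6 and Hoxb8, tested with 200 and 257 counts over all libraries, had standard errors of 0.39 to 0.465 on the log2 scale. Hoxa7, with 203 counts, had 0.357 to 0.37. The part of depth in these standard errors was not tested.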
